A study of Homo sapiens with 8 samples.

Results

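The small GTPases of the Ras, Rap and Ral families were examined as 9 genes, NRAS, HRAS, RRAS, RRAS2, RAP1A, RAP1B, RAP2B, RALA and RALB, chosen by gene symbol from the 58219 genes listed for each library. All 9 were among the 13129 protein-coding genes with enough reads to test. RNA was taken from 2 t(4;14)-positive multiple myeloma (MM) cell lines, H929 and KMS11, in which a translocation joins part of chromosome 4 to the immunoglobulin heavy chain locus. Each line was exposed for 24 h to 2 µM fluvastatin, a statin, or to ethanol as the solvent control. There were 2 replicate cultures in each of the 4 groups, hence 8 total RNA libraries. Both lines carried the translocation, so no group without it was compared, and each line stands for a single donor's tumour.

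Ras-family proteins are switches that are active when bound to GTP and inactive when bound to GDP. Guanine nucleotide exchange factors (GEFs) load GTP and GTPase-activating proteins (GAPs) promote its hydrolysis. NRAS and HRAS feed the RAF, PI3K and RALGDS routes, the Rap proteins act in integrin adhesion and cell junctions, and the Ral proteins act in exocytosis through the exocyst. All of them need a lipid tail on a C-terminal cysteine to reach membranes. The lipid is donated by farnesyl or geranylgeranyl pyrophosphate (FPP or GGPP), products of the mevalonate (MVA) pathway that fluvastatin blocks. The comparisons below ask how the transcripts of these client proteins stood in each line and after the drug, and carry no information on prenylation or on GTP loading.

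The end of each coding sequence is shown because it holds the prenylation signal, the CAAX box, on which the choice of lipid is known to depend. Each run is the last 45 coding bases before the stop codon, 5′ to 3′ on the coding strand, from the GENCODE 44 annotation of GRCh38, and the capitals mark the 12 bases of the box.
NRAS: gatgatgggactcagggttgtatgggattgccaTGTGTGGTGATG
HRAS: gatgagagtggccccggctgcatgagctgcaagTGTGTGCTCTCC
RRAS: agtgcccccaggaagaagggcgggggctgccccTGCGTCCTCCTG
RRAS2: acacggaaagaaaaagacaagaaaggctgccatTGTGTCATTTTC
RAP1A: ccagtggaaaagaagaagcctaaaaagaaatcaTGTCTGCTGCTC
RAP1B: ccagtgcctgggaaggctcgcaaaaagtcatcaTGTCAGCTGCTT
RAP2B: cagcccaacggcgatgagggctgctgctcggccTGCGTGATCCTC
RALA: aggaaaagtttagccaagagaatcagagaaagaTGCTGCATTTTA
RALB: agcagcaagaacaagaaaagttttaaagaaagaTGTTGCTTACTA
The capitals begin in every gene with a cysteine codon, TGT or TGC, the residue that receives the lipid. The last codon differs. It encodes methionine in NRAS and serine in HRAS, endings that favour farnesylation, phenylalanine in RRAS2, and leucine in the other 6 genes, an ending that favours geranylgeranylation. Upstream of the box, the ends of HRAS and RAP2B held 2 further cysteine codons, those of NRAS, RRAS and RRAS2 1 each, and those of RAP1A, RAP1B, RALA and RALB none. In HRAS and NRAS such cysteines receive palmitate.

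The boxes lay at chr1:114708538-114708549 (minus strand) for NRAS, chr11:532639-532650 (minus) for HRAS, chr19:49635579-49635590 (minus) for RRAS and chr11:14279340-14279351 (minus) for RRAS2. Those of RAP1A and RAP1B lay at chr1:111709221-111709232 and chr12:68657173-68657184, and that of RAP2B at chr3:153163231-153163242, all on the plus strand. Those of RALA and RALB were at chr7:39706231-39706242 and chr2:120293246-120293257, also on the plus strand. By coding sequence, RAP1A and RAP1B were identical at 83.0% of aligned bases, RALA and RALB at 73.9% and NRAS and HRAS at 73.4%, the 3 closest pairs, and RRAS and RRAS2 at 61.4%. No stretch of 75 bases was shared between any pair of the 9 genes. Stretches of that length were shared with genes outside the set for 8.46% of positions in RRAS2, where the partner was the pseudogene RRAS2P1, for 2.71% in RAP1B, for 1.99% in RALA and for under 1% in the rest, so that the counts of RRAS2 are the least certain in this respect.

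Library depth ran from 26702515 to 41910446 expected counts. In H929, 85.2% to 86.1% of these fell on protein-coding genes, and in KMS11 90.8% to 91.4%, except in the first fluvastatin-treated KMS11 library, at 88.1%. Of 11 plasma cell and t(4;14) markers, 10 exceeded 1 TPM (a length-corrected transcripts-per-million value) in every library. CD38, a plasma cell surface antigen, was the exception: it was near 0 in KMS11, at 0.104 to 0.301 CPM (counts-per-million of protein-coding reads), against 165 to 185 CPM in H929. Of 12 markers of other cell types, 9 stayed under 1 TPM in all libraries, and EPCAM, an epithelial gene, reached 35.9 TPM in KMS11. In H929, PECAM1, an endothelial marker, had 5.87 to 7.98 TPM. CD3E, a T cell marker, had 1.49 and 1.59 TPM there in ethanol and 2.92 and 3.54 TPM with fluvastatin. In H929, 3 of the 11 plasma cell markers rose and 4 fell with fluvastatin, where 22.7% of all tested genes rose and 19.3% fell. SDC1 fell from 753 and 621 to 376 and 274 CPM. The summed TPM of the 11 was 7325 and 6278 in ethanol and 8121 and 7109 with fluvastatin. Most of this sum was JCHAIN, at 5049 and 4164 TPM in ethanol and 6237 and 5289 TPM with fluvastatin. XBP1, the next most abundant there, went from 944 and 932 to 741 and 738 TPM. In KMS11 1 marker fell, XBP1 (0.533% of all tested genes fell), and the sum was 6608 and 7094 TPM in ethanol and 4747 and 5881 TPM with fluvastatin. JCHAIN again made up most of it, at 5508 and 5973 TPM in ethanol and 3935 and 4967 TPM with fluvastatin. The part of these shifts in the results below was not tested.

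Between genes, levels were compared in TPM, which corrects for transcript length. NRAS was the most abundant of the family in H929, at 127 and 130 TPM in the ethanol controls and 155 and 165 TPM with fluvastatin. In KMS11 the leading transcript was RAP1B, at 89.15 and 84.6 TPM in ethanol and 73.2 and 98.8 TPM with fluvastatin. RRAS stood lowest in H929 ethanol and in both KMS11 groups, at 0.59 to 1.68 TPM over those 6 libraries.

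In H929 ethanol cells the order by mean TPM was NRAS, RAP1B, HRAS, RAP1A, RALA, RALB, RRAS2, RAP2B and RRAS. The ranges of HRAS and RAP1A overlapped and those of the other neighbours did not. With fluvastatin, RAP1A stood above HRAS (25.4 and 31.1 TPM against 18.6 and 14.7) and RALB above RALA (9.33 and 10.1 TPM against 8.86 and 8.65), with no overlap, while RRAS and RRAS2 at the bottom overlapped. In KMS11 ethanol cells the order was RAP1B, NRAS, RALA, HRAS, RRAS2, RAP2B, RAP1A, RALB and RRAS, and RAP2B and RAP1A overlapped. In KMS11 with fluvastatin, the ranges of NRAS, RALA and HRAS overlapped, as did those of RAP1A, RAP2B and RRAS2. Within each of these libraries NRAS stood above RALA, and RAP1A above RAP2B and RRAS2, while the place of HRAS changed between libraries.

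As shares of the summed TPM of the 9 genes, NRAS made up 51.1% and 49.4% in H929 ethanol libraries and 46.1% and 45.4% in the fluvastatin-treated ones. In KMS11 it made up 14.2% and 13.7% in ethanol and 12.3% and 13.4% with fluvastatin. RAP1B took 23.1% and 26.5% in H929 ethanol, 31.9% and 33.3% in H929 fluvastatin, 49.5% and 50.02% in KMS11 ethanol and 43.7% and 48.6% in KMS11 fluvastatin libraries. NRAS thus held the largest share in the 4 H929 libraries, with RAP1B next, and RAP1B the largest in the 4 KMS11 libraries.

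Grouped by the last codon of the box, the 6 genes with a leucine ending made up 37.7% and 40.9% of the pool in H929 ethanol and 47.5% and 49.5% in H929 fluvastatin libraries. In KMS11 they made up 73.5% and 73.1% in ethanol and 68.8% and 73.8% with fluvastatin. The treated and control ranges were apart in H929 and overlapped in KMS11. Most of the H929 change lay in RAP1B alone, which went from 23.1% and 26.5% to 31.9% and 33.3% of the pool. No other gene with a leucine ending took more than 8.6% of it in any H929 library. These shares are descriptions of 2 libraries a group and were not tested.

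**Figure D1:**
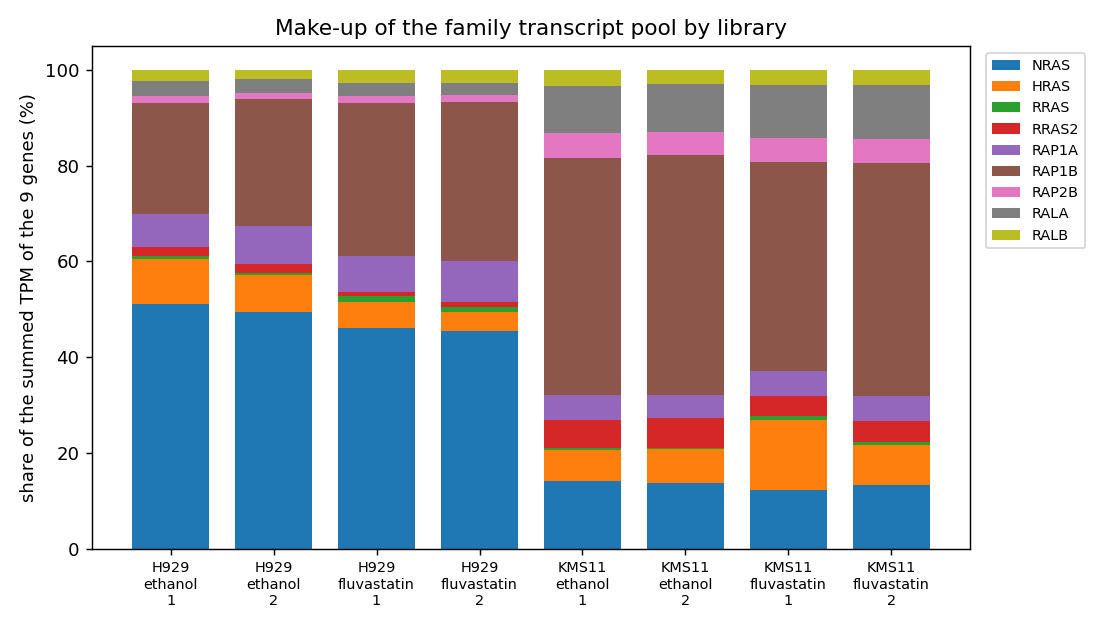
Share of the summed TPM of the 9 genes (percent, vertical axis) taken by each gene in each of the 8 libraries (horizontal axis). NRAS takes 45.4% to 51.1% of the H929 bars and 12.3% to 14.2% of the KMS11 bars, and RAP1B takes 43.7% to 50.02% of the KMS11 bars.

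Between the lines in ethanol, 8 of the 9 genes differed at an adjusted p under 0.05, 5 lower and 3 higher in KMS11, where 72% of all tested genes differed, 36.4% lower and 35.6% higher. This and all later comparisons of 1 gene between groups use CPM of protein-coding reads, scaled between libraries. NRAS had 1149.7 and 1199.7 CPM in H929 ethanol and 157 and 154 CPM in KMS11 ethanol, 7.55-fold lower in KMS11 (log2 fold change −2.92, SE 0.11, adjusted p = 1.2e-08). The ranges were far apart in both treatments. RAP1A, a Rap protein of integrin adhesion, had 59.8 and 70.3 CPM in H929 and 23.1 and 23.7 CPM in KMS11, 2.78-fold lower (log2 fold change −1.48, SE 0.14, adjusted p = 8.4e-06). Its near relative RAP1B had 194 and 243 CPM in H929 and 216 and 220 CPM in KMS11, and the ranges overlapped (log2 fold change 0.00, SE 0.13, adjusted p = 0.98).

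RALA and RAP2B stood higher in KMS11. RALA had 30.6 and 32.3 CPM in H929 and 66.2 and 67.0 CPM in KMS11, 2.12-fold higher (log2 fold change 1.08, adjusted p = 1.8e-05). RAP2B had 61.9 and 59.0 CPM in H929 and 111 and 106 CPM in KMS11, 1.80-fold higher (log2 fold change 0.84, adjusted p = 2.5e-05). RRAS2, an R-Ras GTPase also called TC21, was higher at 25.1 and 24.6 CPM against 15.5 and 17.5 CPM (log2 fold change 0.59, adjusted p = 0.0039).

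HRAS had 30.0 and 29.6 CPM in H929 and 12.996 and 13.4 CPM in KMS11 (log2 fold change −1.18, adjusted p = 0.00016). RRAS had 3.06 and 1.56 CPM against 1.04 and 0.79 CPM (−1.34, adjusted p = 0.0073), and RALB had 24.3 and 22.8 CPM against 18.1 and 16.1 CPM (−0.46, adjusted p = 0.0065). The call of RRAS was lost without the first H929 ethanol library (−0.76, adjusted p = 0.11) or the second KMS11 ethanol library (−1.14, adjusted p = 0.052), and that of RALB without the latter (−0.37, adjusted p = 0.083). HRAS and RRAS are the most GC-rich of the 9 genes, at 64.4% and 64.5% of transcript bases. With each library's trend with GC content removed, the difference between lines was −0.14 for HRAS (adjusted p = 0.25), −0.27 for RRAS (adjusted p = 0.39) and 0.16 for RRAS2 (adjusted p = 0.14), while RAP1B became lower in KMS11 (−0.43, adjusted p = 0.00020).

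Within H929, fluvastatin raised 7 of the 9 transcripts and lowered 1 at an adjusted p under 0.05, against a background of 42% of all tested genes called in this line, 22.7% higher and 19.3% lower. The median log2 fold change of the 9 genes was 0.55, beside 0.02 over all tested genes. In all 9 genes the treated and control libraries of H929 did not overlap, 7 with the treated ones higher and 2 lower, as in 71% of all tested genes, 37.5% higher and 33.5% lower. The genes that rose came from the Ras, the Rap and the Ral branch. In cultures measured in bulk, a change in every cell and a change in the share of cells carrying a transcript cannot be told apart.

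**Figure D2:**
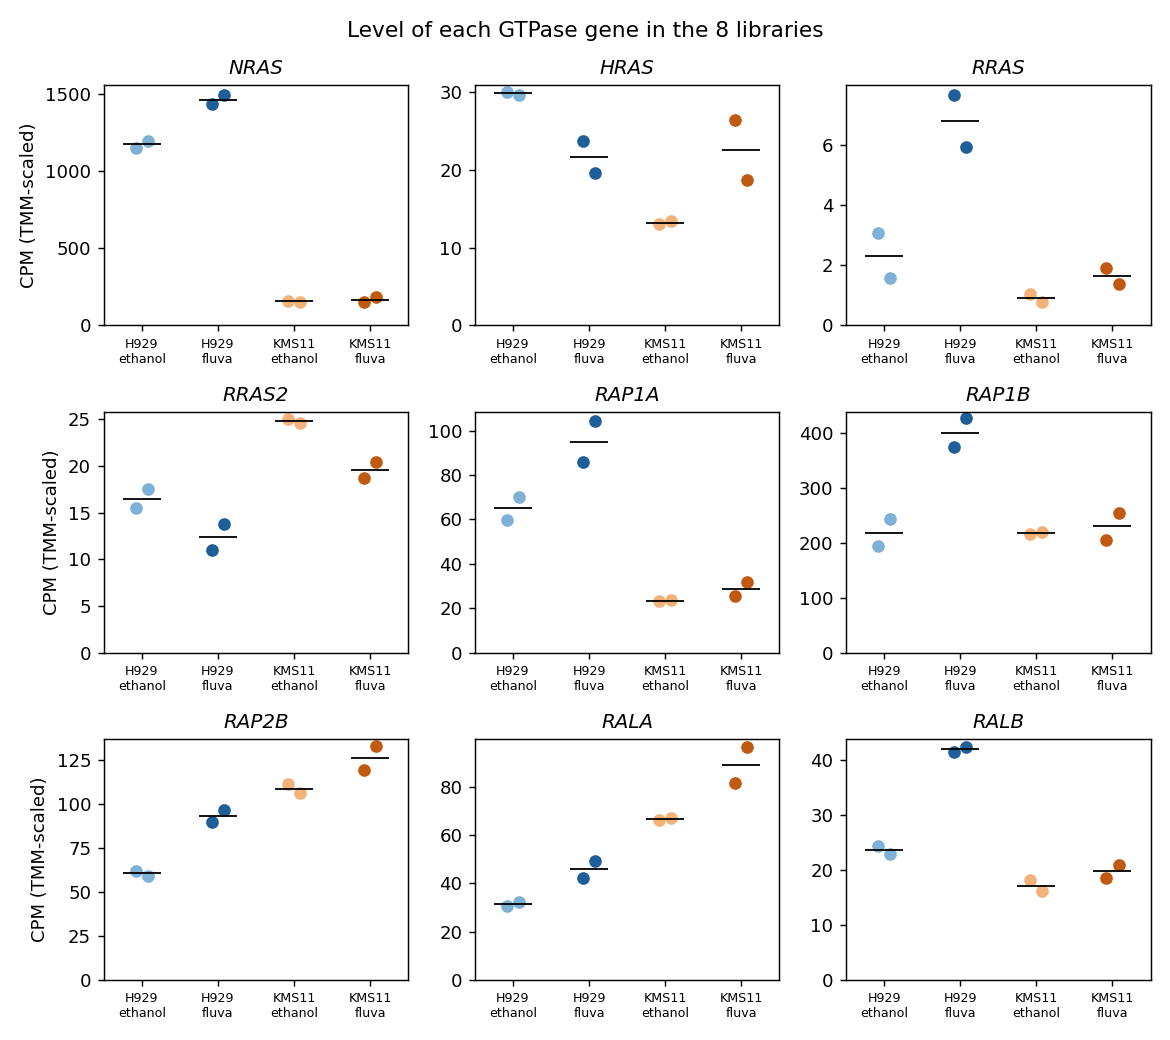
CPM of protein-coding reads (vertical axes) of each of the 9 genes in each of the 4 groups (horizontal axes), 1 point per library with the group mean as a bar, each panel on its own scale from 0. In H929 the fluvastatin points of NRAS, RRAS, the Rap and the Ral genes lie above both ethanol points and those of HRAS and RRAS2 below them.

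Among the Ras genes, NRAS rose from 1149.7 and 1199.7 to 1437 and 1494 CPM, 1.25-fold (log2 fold change 0.32, SE 0.10, adjusted p = 0.027). The treated libraries were both above the controls, but the call held without only 2 of the 8 libraries, the fluvastatin-treated KMS11 ones. Without each of the other 6 the adjusted p ran up to 0.13. HRAS stood lower in treated cells, at 23.7 and 19.5 against 30.0 and 29.6 CPM, and missed the threshold (log2 fold change −0.46, SE 0.17, adjusted p = 0.053).

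RRAS, an R-Ras GTPase linked to integrin activation, rose from 3.06 and 1.56 to 7.64 and 5.92 CPM, 2.90-fold (log2 fold change 1.54, SE 0.33, adjusted p = 0.0041). This largest fold of the 9 genes rested on few reads, with expected counts of 90 and 39 in the controls and 174 and 147 in the treated libraries. RRAS2 moved the other way, from 15.5 and 17.5 to 11.02 and 13.8 CPM, 1.33-fold lower (log2 fold change −0.41, SE 0.15, adjusted p = 0.048). The call of RRAS held without any 1 of the 8 libraries. That of RRAS2 held without 3 of them and was lost without either H929 ethanol library, the first H929 fluvastatin library or either KMS11 ethanol library, where the adjusted p ran up to 0.29.

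The 3 Rap genes rose together. RAP1B went from 194 and 243 to 375 and 427 CPM, 1.83-fold (log2 fold change 0.87, SE 0.14, adjusted p = 0.00071). RAP2B, of the Rap2 branch, went from 61.9 and 59.0 to 89.6 and 96.4 CPM, 1.54-fold (log2 fold change 0.62, SE 0.10, adjusted p = 0.00068). RAP1A went from 59.8 and 70.3 to 85.6 and 104 CPM, 1.46-fold (log2 fold change 0.55, SE 0.14, adjusted p = 0.010). The calls of RAP1B and RAP2B held without any 1 library, and that of RAP1A was lost without the first H929 ethanol library (0.43, adjusted p = 0.079) or the second H929 fluvastatin library (0.40, adjusted p = 0.094).

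Both Ral genes rose in H929. RALB went from 24.3 and 22.8 to 41.5 and 42.5 CPM, 1.78-fold (log2 fold change 0.83, SE 0.12, adjusted p = 0.00050). RALA went from 30.6 and 32.3 to 42.3 and 49.4 CPM, 1.46-fold (log2 fold change 0.54, SE 0.12, adjusted p = 0.0044). Both calls held without any 1 library. On the log2(TPM + 1) scale, where the length of the transcripts enters, the RALA difference was 0.19 (limma, adjusted p = 0.31).

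**Figure D3:**
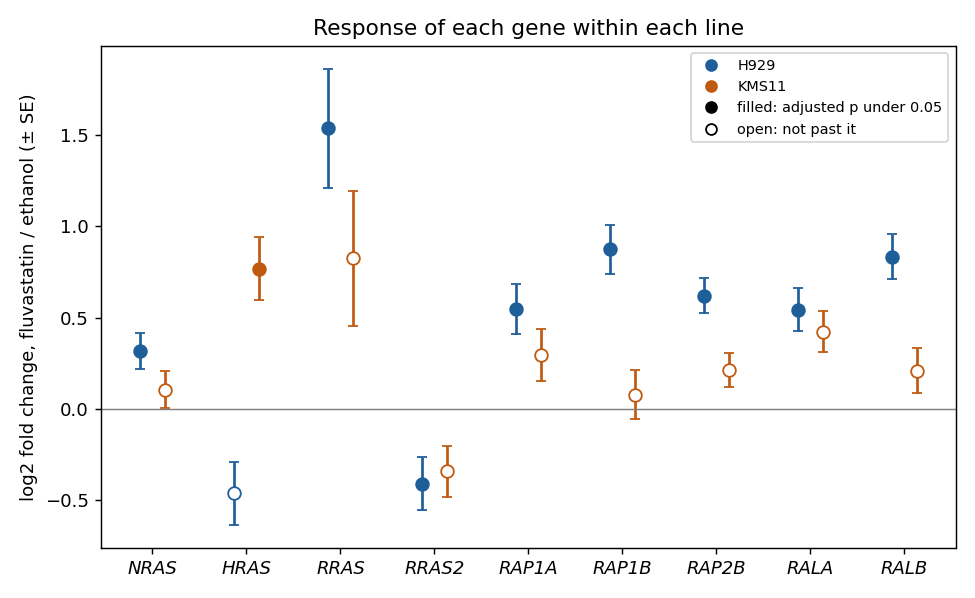
Log2 fold change with fluvastatin against ethanol for each of the 9 genes within H929 and within KMS11, as points with bars of 1 SE from the edgeR fit. In H929 7 genes lie above 0 and HRAS and RRAS2 below it, and in KMS11 the values run from −0.34 for RRAS2 to 0.82 for RRAS.

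Within KMS11, 1 of the 9 genes, HRAS, passed the threshold, against 3.12% of all tested genes, 2.58% higher and 0.533% lower. The median log2 fold change of the 9 genes was 0.22, beside 0.00 over all tested genes. Treated and control libraries did not overlap in 7 of the 9 genes, 6 higher and 1 lower, beside 53.4% of all tested genes, 26.9% higher and 26.5% lower. The 2 genes whose ranges overlapped were NRAS and RAP1B. Replicates were further apart in treated KMS11 cells: over genes, the log2 ratio of one replicate to the other had an SD of 0.25 there, 0.13 in the KMS11 controls and 0.18 in either H929 group.

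HRAS in KMS11 rose from 12.996 and 13.4 to 26.4 and 18.6 CPM, 1.70-fold (log2 fold change 0.77, SE 0.17, adjusted p = 0.046). Both treated libraries lay above the controls, and the higher of them was the first, the library with the lower protein-coding share. Without it the difference was 0.49 (adjusted p = 0.15), and without the other treated library 0.96 (adjusted p = 0.0019). The call was also lost without either KMS11 ethanol library (adjusted p = 0.31 and 0.29) or either H929 ethanol library (adjusted p = 0.060 and 0.059). With the trend with GC content removed, HRAS stood 0.32 higher (adjusted p = 0.076), and NRAS, RAP1A, RAP2B and RALA passed the threshold instead, at 0.28 to 0.54.

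The remaining KMS11 values did not pass. RALA had 66.2 and 67.0 CPM in ethanol and 81.8 and 96.5 CPM with fluvastatin (log2 fold change 0.42, SE 0.11, adjusted p = 0.079). RAP2B had 111 and 106 against 119 and 133 CPM (0.22, adjusted p = 0.22), and RAP1A 23.1 and 23.7 against 25.6 and 31.6 CPM (0.29, adjusted p = 0.25). RALB had 18.1 and 16.1 CPM in ethanol and 18.6 and 20.9 CPM with fluvastatin (0.21, adjusted p = 0.34). In each of these the treated libraries were both above the controls.

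RAP1B had 216 and 220 CPM in KMS11 ethanol and 206 and 254 CPM with fluvastatin (log2 fold change 0.08, SE 0.13, adjusted p = 0.77), and NRAS had 157 and 154 against 152 and 182 CPM (0.11, SE 0.10, adjusted p = 0.56). In both genes 1 treated library fell below the controls and 1 above. RRAS had 1.04 and 0.79 against 1.91 and 1.38 CPM, from expected counts of 29 to 53 (0.82, SE 0.37, adjusted p = 0.23). RRAS2 was lower in both treated libraries, at 18.7 and 20.4 against 25.1 and 24.6 CPM (−0.34, SE 0.14, adjusted p = 0.19).

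Whether the lines responded differently was tested by the difference of the responses, KMS11 minus H929. It passed for 3 of the 9 genes, 1 with a higher and 2 with a lower response in KMS11, where 23.2% of all tested genes passed, 11.7% higher and 11.5% lower. For HRAS the difference was 1.23 on the log2 scale (SE 0.24, adjusted p = 0.0071), and the call held without any 1 library. With the GC trend removed it was 0.60 (adjusted p = 0.0085). HRAS was the only one of the 9 genes whose log2 fold changes in the lines had opposite signs. The other 8 had the same sign in both, as did 54.2% of all tested genes.

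For RAP1B the difference was −0.80 (SE 0.19, adjusted p = 0.015) and for RALB −0.62 (SE 0.17, adjusted p = 0.028), a smaller response in KMS11 in each. The RAP1B call was lost without the first H929 ethanol, the second H929 fluvastatin or either KMS11 ethanol library (adjusted p = 0.052 to 0.072). The RALB call was kept without 1 library alone, the second KMS11 fluvastatin one, and without each of the other 7 its adjusted p ran from 0.058 to 0.15. RAP2B just missed the threshold (−0.41, SE 0.13, adjusted p = 0.053). For RALA (−0.12, SE 0.16, adjusted p = 0.62) and RRAS2 (0.07, SE 0.20, adjusted p = 0.86) the test did not pass, and neither did it for NRAS (−0.21, adjusted p = 0.30), RAP1A (−0.25, adjusted p = 0.38) or RRAS (−0.71, SE 0.49, adjusted p = 0.32). RRAS passed with the GC trend removed (−1.35, adjusted p = 0.016).

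Across both lines, with the line as a term in the fit, 3 of the 9 genes rose and none fell at the threshold of the edgeR test, against 10.4% of all tested genes, 6.5% higher and 3.93% lower. RRAS2 was lower in that test and did not pass (log2 fold change −0.38, adjusted p = 0.065). DESeq2 called 5 genes higher and 1 lower, and 2556 of all 13129 tested genes, 1322 of them higher. RRAS rose 2.32-fold (log2 fold change 1.22, SE 0.28, adjusted p = 0.033), RALA 1.40-fold (0.48, SE 0.09, adjusted p = 0.021) and RAP2B 1.33-fold (0.42, SE 0.10, adjusted p = 0.039). RALB (0.52, adjusted p = 0.051), RAP1A (0.42, adjusted p = 0.054), RAP1B (0.47, adjusted p = 0.10), NRAS (0.21, adjusted p = 0.13) and HRAS (0.15, adjusted p = 0.71) did not pass.

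The calls across both lines were sensitive to single libraries. Those of RALA and RAP2B held without the first KMS11 fluvastatin library (adjusted p = 0.018 and 0.027), and without each of the other 7 libraries their adjusted p ran up to 0.085 and 0.15. That of RRAS held without 3 of the 8, and without any 1 of the H929 libraries or the second KMS11 ethanol library its adjusted p was 0.065 to 0.12.

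The length that RSEM reports for a gene is the mean of its transcripts weighted by their abundance, so it moves when the mix of transcripts moves. NRAS and RAP2B each had a single annotated transcript in these files, of 4449 and 8351 bases, and could not vary. In RALA it was 2018 and 2223 bases in H929 ethanol and 2385 and 2871 bases in H929 fluvastatin libraries, against 2794 and 2755 bases in KMS11 ethanol and 2719 and 2854 bases in KMS11 fluvastatin libraries. RALA was longer in treated H929 cells with no overlap, and its KMS11 ranges overlapped. RRAS2 was also longer in treated H929 cells without overlap, at 1873 and 1911 against 1825 and 1837 bases, and overlapped in KMS11. RALB was longer in treated KMS11 cells without overlap, at 2259 and 2285 against 2228 and 2252 bases, and overlapped in H929.

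In HRAS the mean length was 782 and 837 bases in H929 ethanol, 770 and 806 bases in H929 fluvastatin, 971 and 907 bases in KMS11 ethanol and 800 and 885 bases in KMS11 fluvastatin libraries. The KMS11 values were shorter in both treated libraries. In RAP1B it was 1775 and 1787 bases in H929 ethanol and 1791 and 1842 bases with fluvastatin, longer without overlap, and 1868 and 1858 against 1803 and 1821 bases in KMS11, shorter without overlap. Of the 12119 genes whose length varied, 23.3% were longer and 13.9% shorter without overlap in H929, and 18.3% and 15.8% in KMS11, so that such changes were common. No test was made of them.

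**Figure D4:**
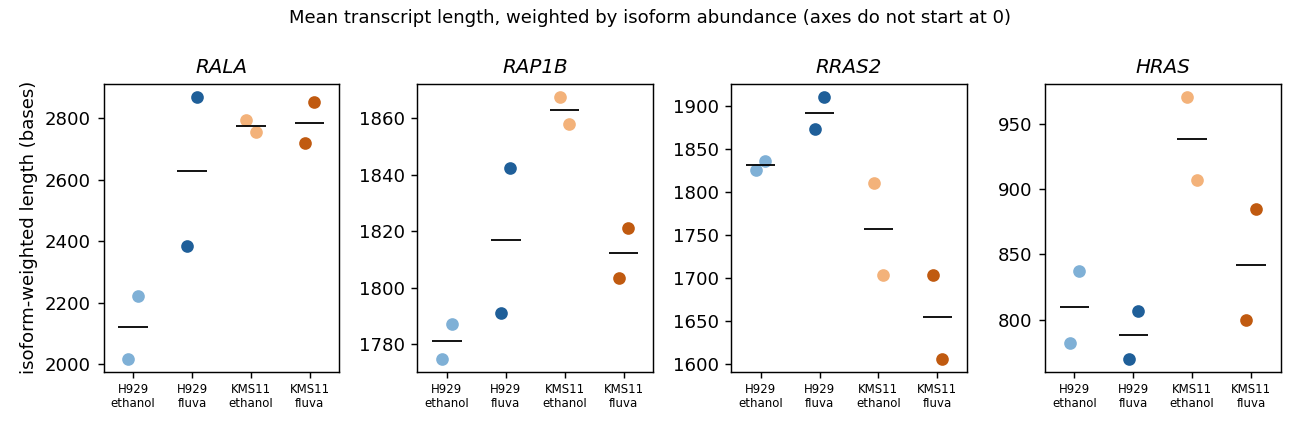
Abundance-weighted transcript length (bases, vertical axes) of RALA, RAP1B, RRAS2 and HRAS by group (horizontal axes), 1 point per library and a line at the group mean. The axes do not start at 0. RALA runs from 2018 to 2871 bases in H929 and from 2719 to 2854 bases in KMS11.

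The wider pathway was followed through 6 lists of genes by role. Over all of them, 40 of 93 tested genes passed in H929, or 43%, beside 42% of all tested genes, and 1 of 93 in KMS11, or 1.08%, beside 3.12% of all tested genes. The share called was thus near that of all genes in H929. Of 14 tested relatives of the Ras family, 5 rose and none fell in H929 (all tested genes: 22.7% and 19.3%). None passed in KMS11 (all tested genes: 3.12%). MRAS, an R-Ras-like GTPase, rose from 2.76 and 2.72 to 7.29 and 6.81 CPM (log2 fold change 1.36, SE 0.22, adjusted p = 0.00081). RAP2C rose from 117 and 130 to 167 and 192 CPM (0.54, adjusted p = 0.0066). NKIRAS1, which encodes a Ras-like regulator of NF-κB signalling, rose from 19.4 and 20.9 to 35.0 and 33.8 CPM (0.77, adjusted p = 0.00093). In KMS11 NKIRAS1 had 8.17 and 7.38 CPM in ethanol and 6.32 and 6.002 CPM with fluvastatin, and the difference of responses passed (−1.11, adjusted p = 0.0031).

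Of 16 tested GEFs, 7 rose and 2 fell in H929 (all tested genes: 22.7% and 19.3%) and none passed in KMS11 (all tested genes: 3.12%). RALGPS2, an exchange factor for Ral, rose in H929 from 32.1 and 28.8 to 87.9 and 88.9 CPM (log2 fold change 1.54, SE 0.12, adjusted p = 1.4e-05). SOS2, which loads Ras below receptor tyrosine kinases, rose there from 37.0 and 33.2 to 88.1 and 90.1 CPM (1.34, SE 0.10, adjusted p = 1.3e-05). In KMS11 RALGPS2 had 113 and 91.3 CPM in ethanol and 134 and 133 CPM with fluvastatin, and SOS2 had 35.5 and 32.7 against 43.8 and 43.9 CPM. The difference of responses was −1.15 for RALGPS2 (adjusted p = 0.0014) and −0.98 for SOS2 (adjusted p = 0.0015). RASGRP1, a diacylglycerol-responsive GEF, fell across both lines (−0.62, adjusted p = 0.044), from 10.1 and 7.80 to 4.92 and 5.48 CPM in H929 and from 6.16 and 5.36 to 4.48 and 3.97 CPM in KMS11.

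Of 19 tested GAPs, 7 rose and 1 fell in H929 (all tested genes: 22.7% and 19.3%) and none passed in KMS11 (all tested genes: 3.12%). RAP1GAP2, which turns Rap off, rose in H929 from 4.08 and 4.24 to 22.3 and 19.2 CPM (log2 fold change 2.31, SE 0.20, adjusted p = 2.9e-05) and was near 0 in KMS11, at no more than 0.0522 CPM. RASA2, a GAP for Ras, rose from 122 and 110 to 214 and 233 CPM (0.95, adjusted p = 0.00018). DAB2IP, another Ras GAP, fell from 8.64 and 5.92 to 3.16 and 2.01 CPM (−1.50, adjusted p = 0.0037).

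Of 16 tested effectors, 7 rose and 1 fell in H929 (all tested genes: 22.7% and 19.3%), and 1 rose in KMS11 (all tested genes: 2.58%). APBB1IP, also called RIAM, which links active Rap1 to integrins, rose in H929 from 9.73 and 11.5 to 39.8 and 43.4 CPM (log2 fold change 1.97, SE 0.15, adjusted p = 1.3e-05). In KMS11 it had 2.61 and 3.04 against 3.43 and 3.55 CPM, and the responses differed (−1.67, adjusted p = 0.0011). RAPH1, the lamellipodin gene, was the KMS11 call and rose in both lines, from 4.08 and 4.24 to 7.69 and 8.58 CPM in H929 (0.97, adjusted p = 0.0021) and from 5.11 and 5.77 to 10.8 and 9.03 CPM in KMS11 (0.86, adjusted p = 0.030).

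Of 13 genes for attaching and handling the lipid, 2 rose and 1 fell in H929 (all tested genes: 22.7% and 19.3%), a smaller share than over all genes. None passed in KMS11 (all tested genes: 3.12%). ICMT, the methyltransferase that caps the prenylated cysteine, fell in H929 from 140 and 150 to 87.7 and 86.5 CPM (log2 fold change −0.73, adjusted p = 0.00015). FNTA, the subunit common to the enzymes that attach farnesyl and geranylgeranyl groups, rose from 107 and 120 to 138 and 161 CPM (0.40, adjusted p = 0.018). RAP1GDS1, a chaperone of prenylated GTPases, rose from 66.4 and 72.3 to 95.7 and 109 CPM (0.56, adjusted p = 0.0019).

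Of 15 tested genes whose transcription is known to follow ERK activity, 3 rose and 4 fell in H929, near the shares over all tested genes (22.7% and 19.3%). None passed in KMS11 (all tested genes: 3.12%). ETV4 fell in H929 from 13.1 and 7.96 to 3.16 and 1.89 CPM (log2 fold change −2.07, SE 0.32, adjusted p = 0.00068). EPHA4 rose from 6.16 and 7.72 to 14.1 and 16.6 CPM (1.14, adjusted p = 0.00096). DUSP6, an ERK phosphatase, fell across both lines (−0.36, adjusted p = 0.037), from 182 and 152 to 138 and 126 CPM in H929 and from 11.1 and 11.3 to 8.31 and 8.74 CPM in KMS11. In ethanol, 10 of the 15 were lower in KMS11 and 2 higher (all tested genes: 36.4% and 35.6%). The median log2 difference of the 15 was −1.43, beside −0.02 over all tested genes.

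**Figure D5:**
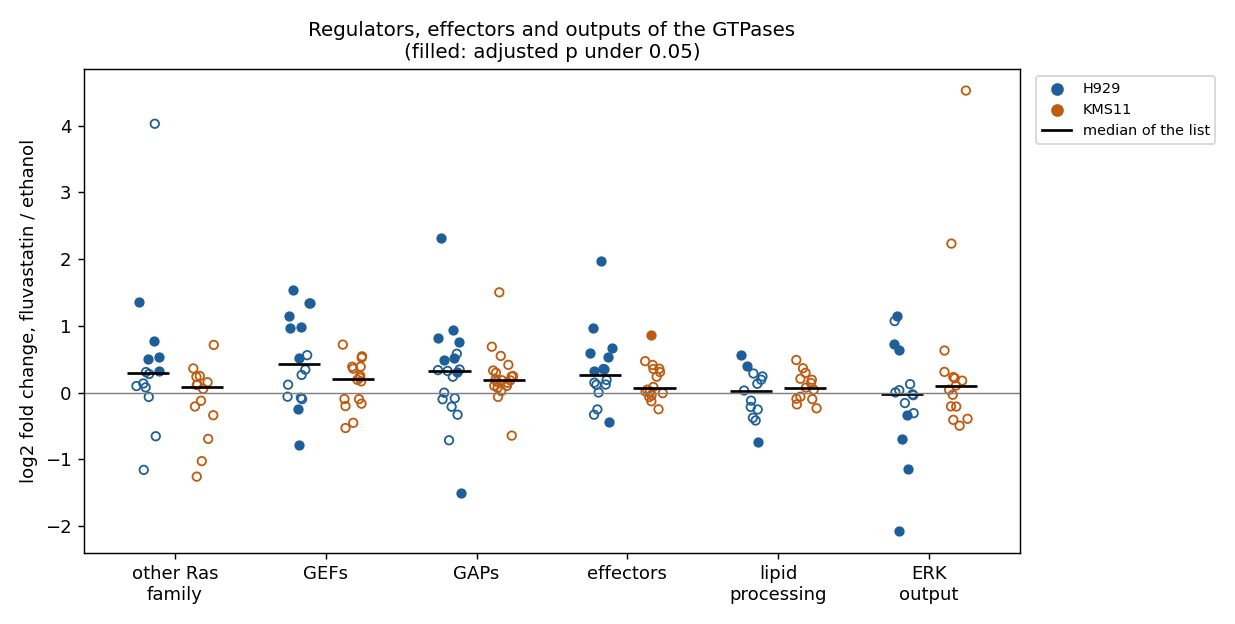
Log2 fold change with fluvastatin against ethanol (vertical axis) of each tested gene of the 6 pathway lists (horizontal axis), with H929 and KMS11 side by side. Filled points passed the threshold within their line: 40 of 93 listed genes (43%) did in H929, beside 42% of all tested genes, and 1 (1.08%) did in KMS11, beside 3.12%, and short lines mark each list's median.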

How the data were processed

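RNA was sequenced from 2 MM cell lines under 2 treatments with 2 replicate cultures each. Per the labels and the study's methods, libraries were made with a stranded total RNA kit after ribosomal RNA depletion and read as paired 75-base ends. The authors deposited RSEM expected counts and TPM per gene, and the submitters' processing notes name STAR 2.5.2b and RSEM 1.3.0. The authors' annotation was GENCODE 26 on GRCh38. Whether strand was used in counting was not given in the sources used here, and HRAS, RAP1A, RAP1B, RALA and RALB have an annotated gene on the opposite strand. The deposited FPKM values were not used.

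Expected counts were rounded to whole numbers. Symbols, coordinates and gene types came from GENCODE 44, which held 57392 of the 58219 gene identifiers. Of 19683 protein-coding genes, 13129 passed edgeR's expression filter (minimum count 10, minimum total 15). TMM scaling and edgeR's quasi-likelihood test (edgeR 4.0.16, R 4.3.3) were applied, with Benjamini-Hochberg adjustment over all 13129 genes and a threshold of 0.05. The fit across both lines had treatment and line as terms. The within-line comparisons, the difference of responses and the comparison of lines came from 1 fit of the 4 group means. CPM are TMM-scaled and SE is the log2 fold change divided by the root of the F statistic. GC and length trends were removed as smooth offsets per library. Limma 3.58.1 on log2(TPM + 1) and DESeq2 1.42.0 were alternatives, as was a replicate block.

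In simulated counts for 13129 genes, the comparison across both lines recovered 85% of genes changed by 1 on the log2 scale and 99% of those changed by 2, with 7.07% false calls, and the difference of responses recovered 59% and 87%, with 4.58% false calls. Few genes were changed, all with an average log2 CPM over 1, and alike in both lines for the comparison across lines. Libraries were simulated as independent, and the within-line comparisons were not simulated. Across both lines all members but RRAS changed by less than 1, a size that was not simulated. Depth ran from 26702515 to 41910446 expected counts. In the fit of group means, p-values measure the spread between 2 cultures a group, pooled over all groups. Across both lines they also take in how far the responses of the lines differ. The common dispersion was 0.032 in that fit and 0.012 in the fit of group means.

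The members and lists were chosen with earlier results of these data known. All 9 members are named. From each list and comparison, up to 3 genes past the threshold with the largest absolute log2 fold change and a mean log2 CPM of at least 1 could be named, and the text gives a part of these. For the 3 members with the largest change across both lines, the 2 most correlated genes could be named, of which 1 is not reported here. No protein table was used here, so coding ends were read from the genome at the annotated coding exons and translated.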

Additional observations from a re-analysis of the deposited data

Results flagged for a closer look

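The response to fluvastatin differed between H929 and KMS11 for 3 of the 9 genes, beside 23.2% of all tested genes. The test was of the difference itself (edgeR's quasi-likelihood test, Benjamini-Hochberg adjusted). For HRAS the difference, KMS11 minus H929, was 1.23 on the log2 scale (adjusted p = 0.0071), with both treated libraries lower than both controls in H929 and both higher in KMS11. For RAP1B it was −0.80 (adjusted p = 0.015), with a log2 fold change of 0.87 in H929 and 0.08 in KMS11. For RALB it was −0.62 (adjusted p = 0.028), with a log2 fold change of 0.83 in H929 and 0.21 in KMS11. The HRAS call held whichever library was left out, while those of RAP1B and RALB were lost without some single libraries.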

How the results depend on the processing

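The 9 genes were re-tested under 940 combinations of gene, comparison and alternative. The side of the threshold was kept in 777, 99 lost a call, 60 gained one and 4 reversed, and in 31 the sign changed while neither value passed. The reversed values belonged to the comparison of lines: on the log2(TPM + 1) and log2(TPM + 0.1) scales RAP1B was 0.45 and 0.46 higher in KMS11, and RALB 0.0088 and 0.0097 higher (adjusted p = 0.96 in both), on scales where the median of all tested genes moved by 0.33 and 0.48. The second scale also moved that median by −0.13 in KMS11 and −0.12 in the difference of responses.

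Across both lines 3 genes were called, and 6 by DESeq2, 5 with library size scaling, 1 with limma on either TPM scale, 8 with the GC trend removed, 7 with GC and length trends removed, 0 without the line term and 0 at an adjusted p under 0.01. Within H929 the 8 calls became 5 with limma on either TPM scale and 5 at an adjusted p under 0.01. Within KMS11 the 1 call became 0 with library size scaling, with all annotated genes, with limma on either TPM scale and at an adjusted p under 0.01, 2 with no filter, 4 with the GC trend removed and 5 with GC and length trends removed. The 3 calls for the difference of responses became 1 at an adjusted p under 0.01. The 8 calls between lines did not move past 1.5 times. RRAS could not be tested where every library had to reach 1 CPM. Over all tested genes, calls across both lines went from 1370 to 2556 by DESeq2, 1381 with library size scaling and 2671 with the GC trend removed. They were 2583 with GC and length trends removed and only 4 without the line term. In KMS11 they went from 409 to 1098 of 16476 genes with no filter and 1503 with the GC trend removed. There they were 396 with library size scaling and 339 of 16719 with all annotated genes. With GC and length trends removed they were 1561 in KMS11. With limma on log2(TPM + 1) they were 1098 across both lines, 4200 in H929 (5511 in the main fit) and 223 in KMS11. With 0.1 added instead they were 1316, 4331 and 158. The cause of these changes was not tested.

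Over the 6 pathway lists, the 13 calls across both lines became 23 by DESeq2, 7 with limma on log2(TPM + 1), 29 with the GC trend removed, 28 with GC and length trends removed, 0 without the line term and 2 at an adjusted p under 0.01. The 1 call in KMS11 became 3 by DESeq2, 2 with median-of-ratios scaling, 4 with no filter, 2 and 0 with limma on the scales with 1 and 0.1 added, 19 with the GC trend removed, 18 with GC and length trends removed and 0 at an adjusted p under 0.01. The 19 calls for the difference of responses became 12 at an adjusted p under 0.01. Over all tested genes, KMS11 calls were 409 in the main fit, 926 by DESeq2, 408 with median-of-ratios scaling and 1503 with the GC trend removed. Across both lines, only 4 of all tested genes were called without the line term.

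Leaving out 1 library at a time gave 0 to 6 members across both lines, 5 to 9 in H929, 0 to 1 in KMS11, 1 to 4 for the difference of responses and 6 to 8 between lines, and 2 to 19, 30 to 45, 0 to 11, 11 to 33 and 61 to 76 listed genes in the same order. Where a group had 1 library left, that library was taken to vary like the others. The number of calls over all tested genes also moved with the library left out, in each of these comparisons. These ranges therefore do not single out the members or the listed genes.

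Same-numbered libraries deviated together in H929 (r = 0.774 over 5561 genes), a hint of pairing in that line, but not in KMS11 (r = −0.078). The labels do not say what a number marks, and file names carry a further code that differs from it in places, so the block was kept as an alternative. With a replicate block by line and number, 0 members passed across both lines, 9 in H929, where HRAS joined (−0.47, adjusted p = 0.024), 4 for the difference of responses, where RAP2B joined (−0.41, adjusted p = 0.041), 2 in KMS11, 7 in KMS11 with the GC trend removed as well, and 1 listed gene passed across both lines, 9 in KMS11 and 33 for the difference of responses. With the block and the GC trend removed these were 3, 31 and 29. Over all tested genes the block gave 158 calls across both lines, 6426 in H929, 1637 in KMS11 and 4227 for the difference of responses. Without the block they were 1370, 5511, 409 and 3048. Between the lines, a block by the number that both lines share, added after seeing the data, left 8 members called and 77 listed genes, against 73.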

Other observations

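After centring on each line's mean log2 CPM, genes whose profiles over the 8 libraries lay closest to the 3 members with the largest change across both lines included WNT11 (r = 0.992) for RRAS, ENTPD4 (r = 0.997) and RIC1 (r = 0.994) for RALB, and KCTD9 (r = 0.996) and TMCC3 (r = 0.991) for RALA. The points share the step between treated and control libraries, and the values are descriptions, picked as the highest of all tested genes.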
